A study of Homo sapiens with 4 samples.

Results

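ZYG11B, KLHL21 and FAF2 are adaptors of the ubiquitin pathway whose mRNAs carried peaks of the RNA-binding protein MARF1 in human HEK293 cells. The regions described here were chosen by the measured peak calls themselves: each peak of either replicate, and each interval called in both, that overlaps the gene body of 1 of the 3 genes on hg19 (GRCh37). That gave 11 of 719 peaks in replicate 1, 10 of 534 peaks in replicate 2 and 5 of 282 shared intervals, or 26 of 1535 regions in all. Fold enrichments and q-values of these regions are therefore a description, and were not tested.

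RNA bound to F-MARF1ΔNYN was measured by UV crosslinking and immunoprecipitation with a FLAG antibody (iCLIP), in 4 libraries, all labelled as HEK293-Trex cells, a human embryonic kidney line. In 2 biological replicates the cells expressed, from a doxycycline-switched transgene, FLAG-tagged MARF1 without its NYN nuclease domain after induction with 100 ng/mL doxycycline for 12 h. In the other 2, the controls, the cells carried no FLAG-tagged protein, and the sources used here do not say whether they received doxycycline. Cells of both groups were crosslinked with 400 mJ/cm2 at 254 nm. The peaks are thus those of an induced transgene without nuclease activity, in 1 cell line. A peak list gives no RNA level, so the cell line could not be checked by marker genes, and how far a peak's height follows the abundance of its mRNA was not tested.

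Ubiquitin ligases and the segregase VCP take their substrates through exchangeable adaptors. ZYG11B is a substrate receptor of CUL2 ligases that recognises proteins with an N-terminal glycine, and KLHL21 is a BTB-Kelch adaptor of CUL3 that acts on Aurora B in mitosis. FAF2, also called UBXD8, sits in the membrane of the endoplasmic reticulum and of lipid droplets, where it brings VCP to ubiquitinated proteins. MARF1 carries LOTUS domains and RNA recognition motifs beside its NYN nuclease domain.

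The sequences below are those under the summits of the 2 ZYG11B sites at which both replicates put the summit at nearly the same base, of the FAF2 site with the closest summits, and of both KLHL21 peaks. Each runs 5′ to 3′ on the mRNA strand over 30 bases of the reference genome, all within a 3'UTR, and the capital marks the summit base. A summit is the highest point of reads that the peak caller extended to 100 bp, and not a mapped crosslink site.
ZYG11B distal site, replicate 1: ttgacacagctcccaGagaggtttgcaaac
ZYG11B distal site, replicate 2: gctcccagagaggttTgcaaacttttggtt
ZYG11B middle site, replicate 1: tatagttagaatctaCaaggcctccttttt
ZYG11B middle site, replicate 2: agaatctacaaggccTcctttttgcacctg
FAF2 second site, replicate 1: agtattccaaagtgtTctgtagctagactg
FAF2 second site, replicate 2: ggctcgttgtaccacTgcaaccgactgacg
KLHL21 peak, replicate 1: cttgggattgtgcccTctcctgtgtctgtc
KLHL21 peak, replicate 2: tggtcatcttccagcAcctgctgtgctggg

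On hg19 the distal ZYG11B windows are chr1:53291912-53291941 and chr1:53291920-53291949, and the middle ones are chr1:53290497-53290526 and chr1:53290504-53290533, all on the plus strand. The FAF2 windows are chr5:175935299-175935328 and chr5:175935334-175935363 on the plus strand. The KLHL21 windows are chr1:6651328-6651357 and chr1:6651969-6651998 on the minus strand. The distal and middle ZYG11B windows of the replicates overlap, while the FAF2 windows lie next to each other and the KLHL21 windows lie apart.

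All 21 peaks and all 5 shared intervals lay in annotated 3'UTRs. Over the other 277 shared intervals that share was 85.2% by the same annotation and 65.7% by the authors' HOMER annotation. Among all peaks, 81.2% of those in replicate 1 and 87.1% of those in replicate 2 lay in 3'UTRs by the first annotation. The 3'UTR makes up 5.66% of the ZYG11B gene (chr1:53192125-53293008), 11.1% of KLHL21 (chr1:6650784-6674667) and 5.0% of FAF2 (chr5:175874629-175937075). No other annotated gene overlaps the 3'UTRs, which matters because the peaks were called without strand. The annotation file of the shared intervals names the gene with the nearest start site as ZYG11A for the ZYG11B intervals and RNF44 for the FAF2 intervals, although every one of them lies in the last exon of ZYG11B or FAF2.

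**Figure D1:**
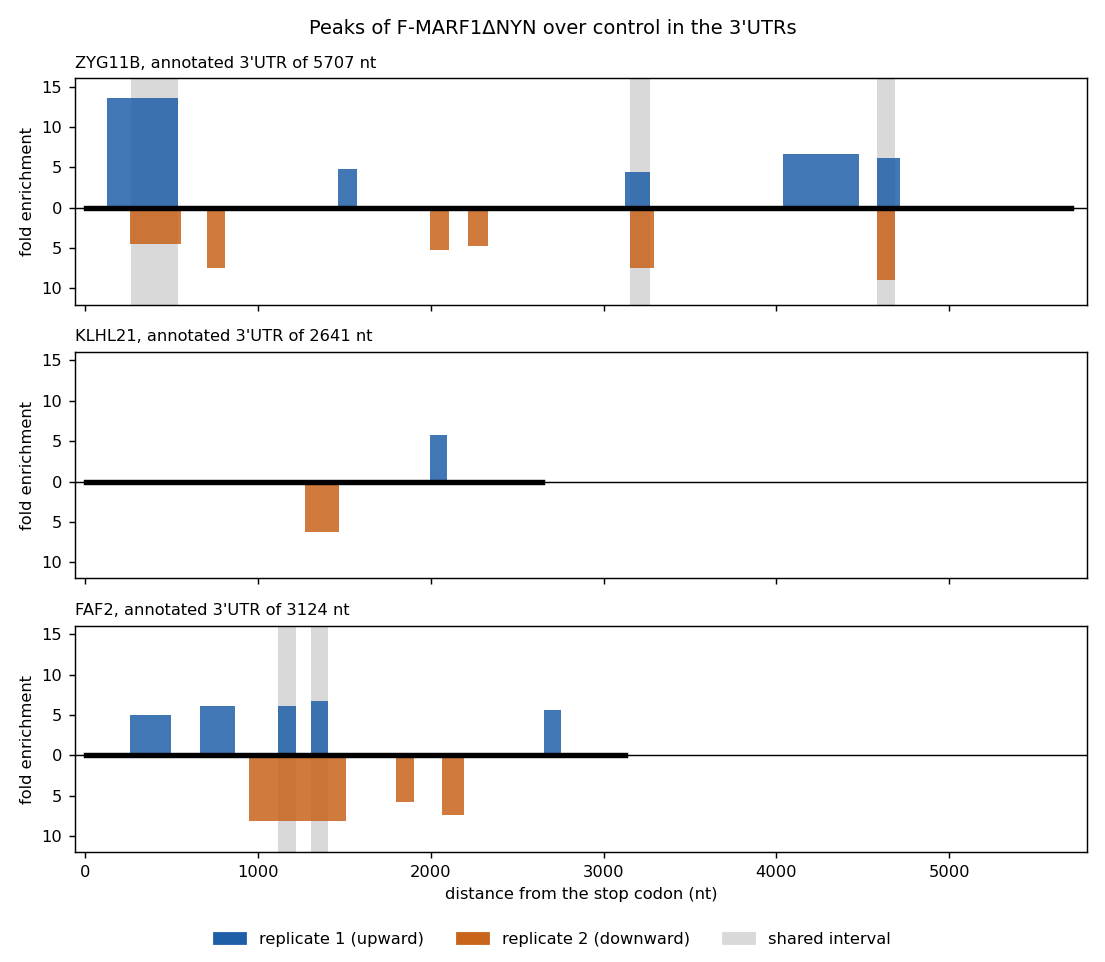
Peaks along the 3'UTRs of the 3 genes. The horizontal axis is the distance from the stop codon in nt, bar height is the fold enrichment over control (replicate 1 upward, replicate 2 downward), bar width is the extent of the peak, the thick line is the annotated 3'UTR and grey marks the shared intervals, of which ZYG11B has 3, FAF2 2 and KLHL21 0.

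The ZYG11B receptor had the longest 3'UTR of the 3 genes, 5707 nt, with 5 peaks in replicate 1 and 6 in replicate 2. In each replicate 3 of these peaks overlapped a peak of the other, which gave 3 shared intervals. Gene symbols with 3 or more shared intervals numbered 30 of the 117 in the final list. Peaks covered 21.7% of the ZYG11B 3'UTR in replicate 1 and 15.2% in replicate 2, and 8.71% was covered in both.

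The FAF2 3'UTR, 3124 nt long, held 5 peaks in replicate 1 and 3 in replicate 2. Its 2 shared intervals came from 2 peaks of replicate 1 that lay under a single 561-nt peak of replicate 2, so they are not separate sites in that replicate. Peaks covered 23.8% of the FAF2 3'UTR in replicate 1 and 25.5% in replicate 2, while 6.63% was covered in both. Per kb of 3'UTR this was 1.60 and 0.960 peaks, against 0.876 and 1.05 in ZYG11B.

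KLHL21 had no shared interval. Its 3'UTR of 2641 nt held 1 peak in each replicate, at 1992 to 2091 nt from the stop codon in replicate 1 and at 1270 to 1465 nt in replicate 2. The peaks were 526 nt apart and their summits 641 nt apart. The gene is thus named by both replicates, but not at the same place.

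Over the 3 genes, 5 of 11 peaks in replicate 1 and 4 of 10 in replicate 2 overlapped a peak of the other replicate. Over all peaks the share was 35.9% in replicate 1 and 46.8% in replicate 2. Overlap between replicates was part of how the shared intervals were chosen, so nothing is read from these counts.

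Fold enrichment at a ZYG11B site depended on the replicate. The first shared interval (chr1:53287562-53287836, 261 to 535 nt from the stop codon) had a fold enrichment of 13.5 in replicate 1 and 4.45 in replicate 2. In replicate 1 that peak ranked 15 of 719 by fold, and in replicate 2 its partner ranked 525 of 534. The log2 difference, replicate 2 minus replicate 1, was -1.60, the lowest of the 282 shared intervals.

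The read numbers behind this interval differed far less than its folds. The number of reads at each summit was solved from the fold enrichment and p-value of the peak caller, and the background is the number of reads that the caller expected there from the control. The caller adds 1 to both before it takes the fold. The first ZYG11B interval had 16 reads at the summit in replicate 1 and 13 in replicate 2, against backgrounds of 0.257 and 2.00. The control held at most 0 reads in the 100 bp around the summit in replicate 1 and at most 2 in replicate 2, and as ratios the backgrounds differed by more than the reads did.

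The other ZYG11B intervals went the opposite way. The middle one (chr1:53290454-53290570, 3153 to 3269 nt from the stop codon) had folds of 4.44 and 7.50 in replicates 1 and 2, from 7 and 10 reads. The distal one (chr1:53291882-53291986, 4581 to 4685 nt) had folds of 6.10 and 8.98, from 10 and 15 reads. The order of the 3 sites by fold was thus not the same in the replicates: first, distal, middle in replicate 1 and distal, middle, first in replicate 2. By reads at the summit, the first site led in replicate 1 and the distal site in replicate 2, and 2 replicates cannot rank them.

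Summits of the replicates lay 28, 7 and 8 nt apart at the first, middle and distal ZYG11B intervals, where the median over all 282 shared intervals was 49 nt. Each overlap covered at least 67.2% of both peaks.

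At the first FAF2 interval (chr5:175935066-175935172, 1115 to 1221 nt from the stop codon) replicate 1 had a fold enrichment of 6.14 and replicate 2 one of 8.11. The second (chr5:175935258-175935357, 1307 to 1406 nt) had 6.75 in replicate 1 and, since it lies under the same peak, 8.11 in replicate 2. The summit of the replicate 2 peak, with 16 reads, lay 35 nt from the replicate 1 summit of the second interval, which had 9 reads. It lay 262 nt from that of the first, which had 15 reads, so at the first interval replicate 2 gave an overlap but no summit.

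**Figure D2:**
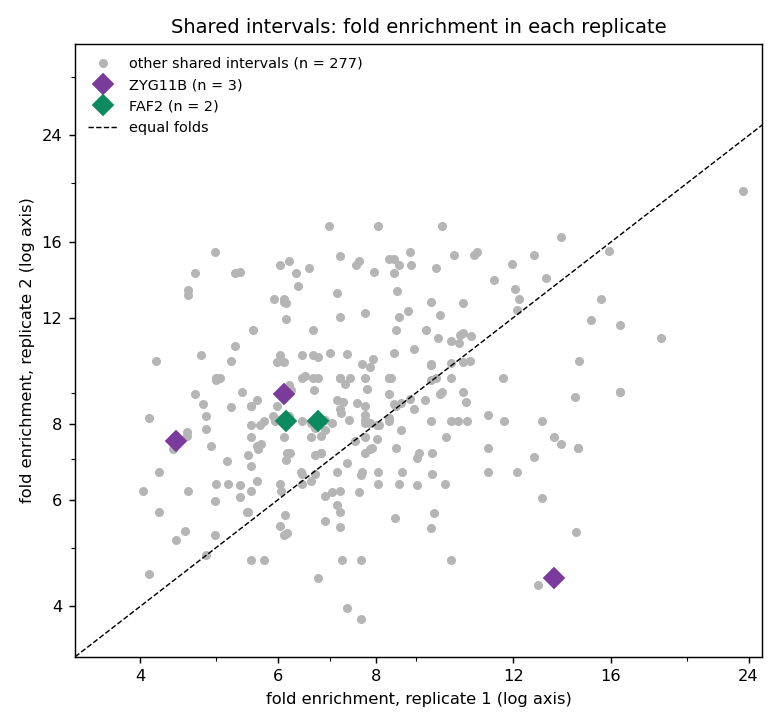
Fold enrichment of each shared interval in replicate 1 (horizontal, log axis) and replicate 2 (vertical, log axis), with ZYG11B and FAF2 as diamonds, the other 277 intervals as grey points and equal folds as the dashed line. The first ZYG11B interval, at 13.5 and 4.45, lies apart from the other 4 diamonds, which lie above the line.

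The median over the 5 intervals of the lower fold of the replicates was 6.10, and over the other 277 it was 6.75. By replicate the medians were 6.14 and 8.11 in the 3 genes and 7.36 and 8.48 elsewhere. Fold was higher in replicate 2 at 4 of the 5 intervals, as it was at 66.4% of the others. By the lower fold the FAF2 intervals ranked 137 and 182 of 282, and the ZYG11B intervals ranked 187, 269 and 271, so 4 of the 5 lay below the middle of the list.

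The depth at each site was low. The median of the lower number of reads was 10 over the 5 intervals and 12 over all 282. Across the 21 peaks the summits held from 5 to 16 reads in replicate 1 and from 9 to 16 in replicate 2, with medians of 9 and 11.5. All peaks together had medians of 8 and 11. In 10 of 11 peaks of replicate 1 and 8 of 10 of replicate 2, at most 1 control read lay in the 100 bp around the summit, as at 89.6% and 89.7% of all peaks.

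**Figure D3:**
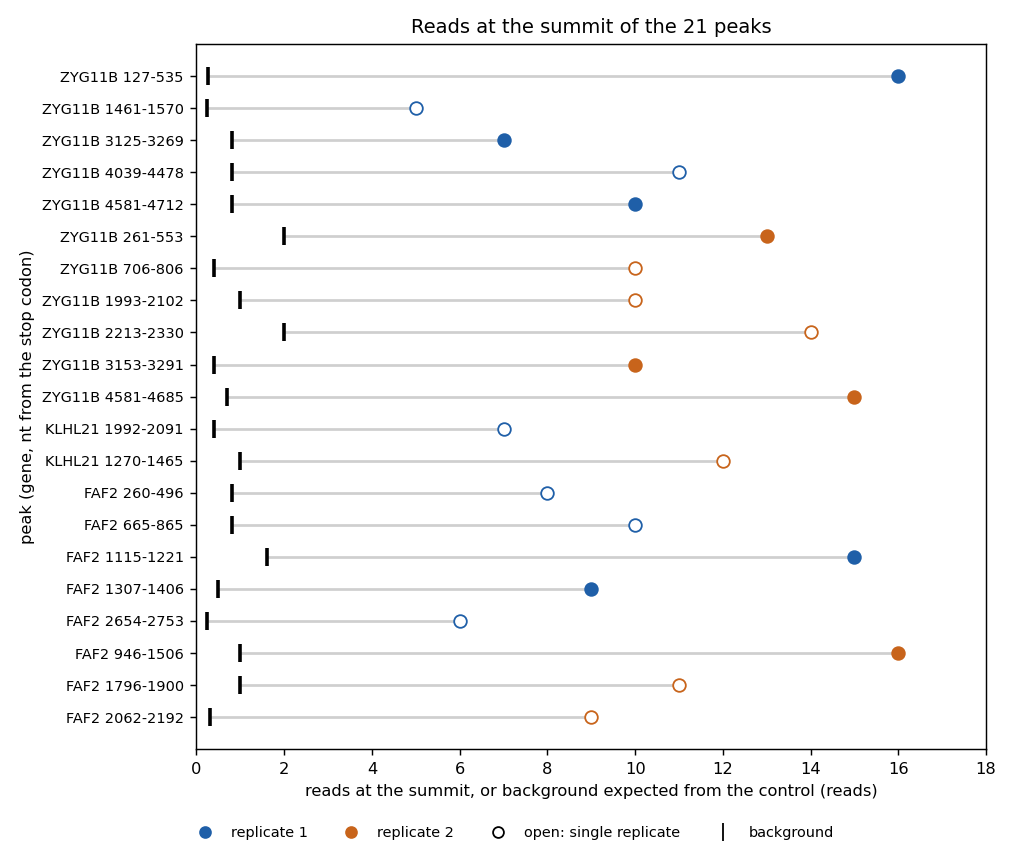
Reads at the summit of each of the 21 peaks (circles, filled where the peak overlaps one of the other replicate) and the background expected from the control (vertical ticks), both in reads. No summit exceeds 16 reads and no background exceeds 2.00.

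The 2 KLHL21 peaks had folds of 5.71 in replicate 1, from 7 reads, and 6.20 in replicate 2, from 12 reads. Their q-values were 5.05e-04 and 4.65e-05. The median fold of all peaks found in a single replicate was 5.71 in replicate 1 and 7.09 in replicate 2, so neither KLHL21 peak stood above its median.

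The other single-replicate peaks were spread along the ZYG11B and FAF2 3'UTRs. In ZYG11B they started 1461 and 4039 nt after the stop codon in replicate 1, with folds of 4.83 and 6.65. In replicate 2 they started at 706, 1993 and 2213 nt, with folds of 7.50, 5.25 and 4.77. FAF2 had 3 in replicate 1, at 260, 665 and 2654 nt, with folds of 4.99, 6.10 and 5.64. It had 2 in replicate 2, at 1796 and 2062 nt, with folds of 5.73 and 7.35. These summits held 5 to 14 reads. Why the other replicate had no peak there was not tested, and the lack of one does not show that binding was absent.

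The highest q-value among the 21 peaks was 0.0225, at the middle ZYG11B peak of replicate 1. The weakest peak of the whole list had 0.0489 in replicate 1 and 0.0433 in replicate 2. Regions just outside the threshold of the peak caller are not listed and have no values here.

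Of the ZYG11B peaks, 2 held sequence with near-identical copies elsewhere in the genome. The replicate 1 peak at 4039 nt matched 5 other places, and the replicate 2 peak at 2213 nt matched 6, at 95% identity or more over at least 50 nt. At 90% identity or more, with no minimum length beyond that of the search, they matched 536 and 674 places, so both peaks held highly repeated sequence. Neither was shared between replicates. The other 19 peaks, with all those behind the shared intervals, had no such match.

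Median GC content around the summits was close to that of the host 3'UTR in ZYG11B and FAF2, while both KLHL21 summits lay above theirs. The whole 3'UTR had a GC content of 36.9% in ZYG11B, 44.5% in FAF2 and 56.4% in KLHL21. In the 100 nt around the summits the median was 38% over 11 ZYG11B peaks and 44.5% over 8 FAF2 peaks, and the KLHL21 peaks had 64% and 63%. GC content was above that of the host 3'UTR at 8 of 11 ZYG11B, 4 of 8 FAF2 and 2 of 2 KLHL21 summits. Against the median of 100-nt windows tiled along the same 3'UTR, it was higher at 8, 3 and 2 summits. Several summits share the same bases, and whether GC content differs from other places in these 3'UTRs was not tested.

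**Figure D4:**
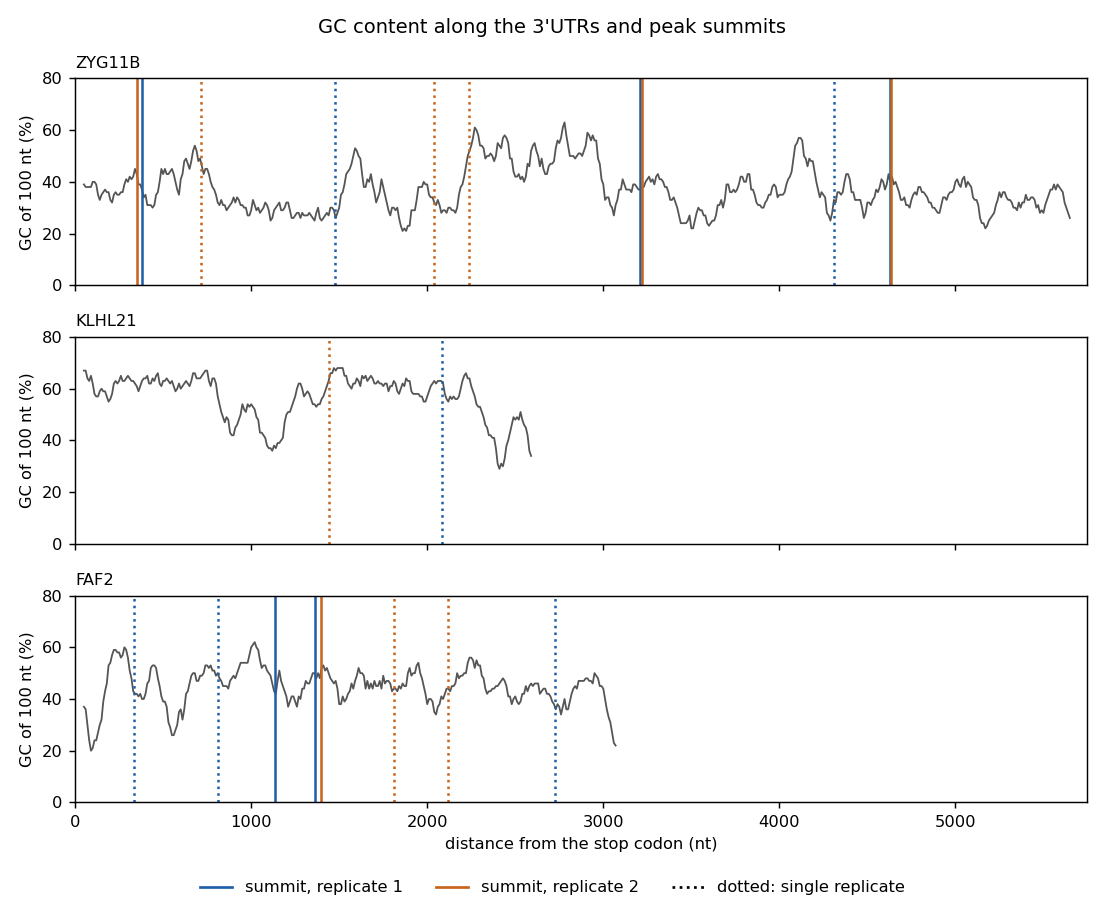
GC content (%) of 100-nt windows along each 3'UTR against the distance from the stop codon (nt), with vertical lines at the summits of replicate 1 and replicate 2, dotted where the peak was found in a single replicate. Summits fall in windows of very different GC content, from 28% to 64%.

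The predicted folding of the RNA was compared with windows tiled along the same 3'UTR. The minimum free energy of the 100 nt around the summit ranged from -31.1 to -9.80 kcal/mol in ZYG11B and from -26.8 to -10.1 kcal/mol in FAF2. It was -43.8 and -37.4 kcal/mol at the KLHL21 summits. The medians over windows tiled along the 3'UTRs were -17.7, -21.3 and -31.3 kcal/mol for ZYG11B, FAF2 and KLHL21. Energies were below the median of the host 3'UTR at 16 of the 21 summits, where several summits share the same bases, and whether this differs from other places in these 3'UTRs was not tested.

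A list of 51 other genes took in partners and paralogs of the 3 adaptors and further parts of the ubiquitin and NEDD8 systems. Of these, 3 (5.88%) had a peak in either replicate, where 2.34% of 20149 coding gene names did, and the difference was not tested. The list was chosen with earlier results of these data known. The 2.34% counts coding genes whether or not the cells express them, so nothing is read from the difference. The ZYG11 and ZER1 family with the CUL2 ligase gave 0 of 6 genes, and a group of ubiquitin and NEDD8 enzymes with NEDD8 itself, COPS5 and CAND1 gave 0 of 9, groups too small to read anything from a count of 0. CUL3 with BTB-Kelch adaptors and the substrate AURKB gave 1 of 17, and the partners of FAF2 with VCP cofactors and genes of endoplasmic reticulum-associated degradation gave 2 of 19.

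KLHL15, another BTB-Kelch adaptor of CUL3, had 3 peaks in each replicate, all in its 3'UTR. Its 5 shared intervals reuse these peaks, so they are not 5 separate sites. The KLHL15 peak with most reads held 50 in replicate 1 and 51 in replicate 2, the highest numbers of the 719 and 534 peaks. Its background was high as well, 7.23 and 5.0 reads, and its folds were 6.20 and 8.25. The other KLHL15 peaks had folds of 7.62 and 4.85 in replicate 1 and of 14.9 and 4.86 in replicate 2. The highest KLHL15 fold lay above the highest ZYG11B fold in replicate 2, 14.9 against 8.98, and below it in replicate 1, 7.62 against 13.5.

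DERL2, a membrane protein of the degradation route that FAF2 serves, had 1 peak in its 3'UTR in replicate 2, with 7 reads and a fold of 7.09. UFD1L, a cofactor of VCP, had 1 peak in its 5'UTR in replicate 1, with 5 reads and a fold of 5.13. Neither gene had a peak in the other replicate.

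For each gene the shared interval with the highest fold in its lower replicate was taken, which is the distal one in ZYG11B and the second in FAF2. The genes whose interval was nearest in log2 fold over the 2 replicates included CDON and SLK for ZYG11B, at Euclidean distances of 0.12 and 0.17. For FAF2 they were PPP2R5A, IQSEC1 and SLK, at 0.03, 0.06 and 0.07. SLK, with folds of 6.45 and 8.08, was in both lists. CDON has another interval with the same lower fold, 5.64, so the rule does not choose between them. Its distance is for the interval with 8.76 in replicate 2, not the one with 7.35. The distances from ZYG11B hold for its distal interval alone, since its first interval, at 13.5 and 4.45, has another pattern. KLHL21 has no shared interval and so no such distance.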

How the data were processed

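The authors trimmed reads with Trimmomatic 0.32 and aligned them to hg19 with STAR 2.3.0e. Reads that mapped to many places in the genome were discarded. SAMtools 1.9 was used to drop secondary alignments and Picard 2.10.7 to drop duplicates. Peaks were called with MACS2 2.1.1, pairing F-MARF1ΔNYN replicate 1 with control 1 and replicate 2 with control 2. The deposited peak files give a score, a fold enrichment over the control background, and −log10 values of p and q per peak. Shared intervals are the authors' intersections of the replicates' peaks, annotated by HOMER 4.10, with a deposited peak score. All 282 were rebuilt here from overlaps of at least 1 bp with the same coordinates.

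Genes and 3'UTRs came from GENCODE release 44 on GRCh37. Regions were taken at the middle base, and a base in the 3'UTR of any transcript, on either strand, counted as 3'UTR before any other region. Reads at a summit are the whole number that gives both the deposited fold and p-value under the Poisson model of the caller, within 0.001 of −log10 p, and all 719 and 534 peaks had a solution. For 2 peaks of replicate 1 and 6 of replicate 2, none of them in the 3 genes, more than 1 number fitted. In replicate 2 a read had to count as 0.951, a weight inferred from the peaks themselves, and its read numbers rest on that weight. The solving step was tested on data simulated under the same model. That test cannot check whether the caller used this model or whether the weight of replicate 2 is right. Copies were searched with blastn 2.17.0 and folding energies computed with ViennaRNA 2.7.2, with Python 3.11.15. Total depth per library is not given in the files, which hold no value per library, so no test between groups was made.

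The members and lists were chosen with earlier results of these data known. Named genes are the 3 adaptors, each gene of the pathway list with a peak, and the 3 nearest genes per adaptor by its best shared interval, of which 1 is not reported here. Alternatives were stricter q-values, folds and overlaps, other annotations, and each replicate left out.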

Additional observations from a re-analysis of the deposited data

How the results depend on the processing

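Of 27 alternatives to the main settings over the 6 results, 18 left the value within the spread between replicates or within 1.5 times the count. The 5 shared intervals became 3 when both replicates had to reach a q-value under 0.001, with 1 in ZYG11B and 2 in FAF2, and 3 with a reciprocal overlap of at least 50%, all in ZYG11B. FAF2 therefore has 0 intervals under the overlap rule, since its replicate 2 peak is far longer than those of replicate 1. Requiring both summits inside the interval, an alternative chosen after seeing the data, left 4. Under the overlap rule the median fold of the remaining intervals was 4.45.

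Leaving out each replicate in turn gave 10 to 11 regions in place of the 5 shared intervals, since the peaks of the other replicate then stand alone, and 10 to 11 in place of the 21 peaks. Over the 5 shared intervals, the values of a single replicate gave a median fold of 6.14 to 8.11 and median reads of 10 to 15. In replicate 2 these medians count the FAF2 peak at both its intervals. All 5 intervals lay in 3'UTRs by each annotation tried, while the share of the other 277 was 85.2% by GENCODE and 65.7% by HOMER, and 3 pathway genes had a peak at a q-value under 0.01 and by exon overlap, but 2 in either replicate alone, an alternative chosen after seeing the data. Each peak call already pairs a replicate with its own control. No further paired analysis was made, since no result comes from a test and the regions were chosen by the calls themselves. Few reads stand behind each fold, with 5 to 16 at the summits and at most 2 control reads in 100 bp.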
